A study of Mus musculus with 44 samples.

Results

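The genes of cytosolic heat shock chaperones were followed through the first hours after contextual fear conditioning in the dorsal hippocampus of WT and Kdm5b mutant mice. The 9 genes were listed by name (Hspa1a, Hspa1b, Hspa8, Hsph1, Hsp90aa1, Hspb1, Dnajb1, Dnajb5 and Hsf1) out of 27179 genes in the count files, and each symbol matched 1 gene. The genes were chosen by name with earlier results of these same libraries in view, so that they count as selected on their changes over time and between genotypes here. The fold changes and adjusted p below are given as a description of them and are no independent support for the choice.

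The 36 libraries came from 1 mouse each, with 6 WT and 6 mutant mice at 0 h (naive mice), 1 h and 3 h after training with 3 electric shocks. Each group held 3 mice labelled male and 3 labelled female, 7 to 8 weeks old. The mutants are homozygous for the Kdm5b allele that the labels write as Kdm5bDARID/DARID. It lacks exons 2 to 4, which encode part of the JmjN domain and the ARID domain, and a shorter KDM5B protein without H3K4me3 demethylase activity is still made. By the paper's account, total KDM5B protein also appeared reduced in the mutants, as the shorter protein was unstable or less well detected. The allele was inherited through the germline and is present in all cells. WT and mutant mice alike were F2 animals of a cross between C57BL/6J mutant males and 129S2/Sv females, so that all 6 groups have a mixed genetic background. A further 8 samples of the series, from naive whole hippocampus, were not analysed here.

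When proteins unfold, the transcription factor HSF1 binds heat shock elements, which are inverted repeats of the bases GAA, and raises the transcription of chaperone genes. HSP70 proteins hold unfolded stretches of their clients in a cycle driven by ATP, J-domain proteins of the HSP40 family deliver clients to HSP70, HSPH1 exchanges its nucleotide, HSP90 matures kinases and steroid receptors, and small heat shock proteins keep clients from aggregating. In neurons the constitutive HSP70 and HSP90 are abundant, and the inducible HSP70 is low without stress.

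Of the 6 genes with a promoter window, some held HSF1-type repeats close to the start, and the sequences below show where. They are the 250 bases before the RefSeq transcription start on GRCm38.p6, written 5′ to 3′ on the strand of the gene, for the inducible HSP70 genes, for the small heat shock gene and for the J-domain genes that the results turn on. Capitals mark GAANNTTC, which is a pair of facing GAA units and reads the same on either strand, and TGACG on either strand (CGTCA where it lies on the other strand), the core of the element bound by CREB. The stretches lie at chr17:34972157-34972406 on the minus strand for Hspa1a, chr17:34959239-34959488 on the minus strand for Hspa1b, chr5:135887669-135887918 on the plus strand for Hspb1, chr8:83607925-83608174 on the plus strand for Dnajb1 and chr4:42949617-42949866 on the plus strand for Dnajb5.
Hspa1a: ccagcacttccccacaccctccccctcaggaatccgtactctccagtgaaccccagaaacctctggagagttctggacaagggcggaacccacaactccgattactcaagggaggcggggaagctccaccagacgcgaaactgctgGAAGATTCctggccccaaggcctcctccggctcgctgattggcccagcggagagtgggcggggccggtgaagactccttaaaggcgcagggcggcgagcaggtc
Hspa1b: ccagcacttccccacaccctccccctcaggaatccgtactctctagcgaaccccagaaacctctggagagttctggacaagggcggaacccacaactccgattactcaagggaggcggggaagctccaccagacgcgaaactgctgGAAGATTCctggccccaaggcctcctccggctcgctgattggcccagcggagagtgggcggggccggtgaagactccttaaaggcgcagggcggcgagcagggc
Hspb1: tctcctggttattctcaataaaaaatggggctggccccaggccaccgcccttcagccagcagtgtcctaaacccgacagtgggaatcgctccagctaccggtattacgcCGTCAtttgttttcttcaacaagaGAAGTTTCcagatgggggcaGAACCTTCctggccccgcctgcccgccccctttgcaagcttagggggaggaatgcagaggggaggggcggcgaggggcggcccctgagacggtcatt
Dnajb1: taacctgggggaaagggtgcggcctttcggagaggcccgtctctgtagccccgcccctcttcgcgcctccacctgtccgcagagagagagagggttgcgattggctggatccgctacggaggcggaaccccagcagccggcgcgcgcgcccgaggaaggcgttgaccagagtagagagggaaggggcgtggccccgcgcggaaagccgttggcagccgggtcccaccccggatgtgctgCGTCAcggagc
Dnajb5: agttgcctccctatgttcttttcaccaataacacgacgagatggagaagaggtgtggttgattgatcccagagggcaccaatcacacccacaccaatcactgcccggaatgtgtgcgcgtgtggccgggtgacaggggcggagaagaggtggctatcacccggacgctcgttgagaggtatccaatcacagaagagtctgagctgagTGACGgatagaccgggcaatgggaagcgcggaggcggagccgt

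Hspa1a and Hspa1b each held 1 GAANNTTC, 104 bases before the start, and their 2 stretches differed at 3 of 250 bases. Hspb1 held 2, at 117 and 97 bases before the start, and a TGACG at 141 bases before it. Neither Dnajb1 nor Dnajb5 held GAANNTTC in any of their RefSeq windows of 300 bases, which run from 250 bases before a start to 50 after it, and this says only that these letters are not in those windows. Dnajb1 held TGACG 11 bases before its first start and not in the window of its second. Dnajb5 has 3 starts, and held TGACG 43 bases before the first, 66 before the second (the same site) and 28 before the third. Hsph1 held GAANNTTC after the start, 41 bases into the transcript, as part of the 3-unit heat shock element, in which a further facing unit (here TTC, on the strand of the gene) stands 2 bases before the pair. No window of the 6 genes held a CArG box, the element bound by SRF. Over all 32851 RefSeq windows of this length, 7.86% held GAANNTTC, 0.603% held the 3-unit element, 1.63% held a CArG box and 20.8% held TGACG. The table used gave windows for 6 of the 9 genes, and Hspa8, Hsp90aa1 and Hsf1 are named only.

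On GRCm38 the inducible HSP70 genes are neighbours on chromosome 17, Hspa1a (Entrez gene 193740) at chr17:34969359-34972156 and Hspa1b (15511) at chr17:34956429-34959238, both on the minus strand. Hspa8 (15481), the constitutive HSP70, lies at chr9:40801276-40805202 on the plus strand and overlaps the small nucleolar RNA genes Snord14c, Snord14d and Snord14e. Hsph1 (15505), the HSP110, lies at chr5:149616843-149636498 on the minus strand, and Hspb1 (15507), the small heat shock gene, at chr5:135887919-135889563 on the plus strand. Hsp90aa1 (15519), the inducible cytosolic HSP90, lies at chr12:110691036-110696395 on the minus strand. The J-domain genes are Dnajb1 (81489) at chr8:83608175-83612653 and Dnajb5 (56323) at chr4:42949867-42959425, both on the plus strand. Hsf1 (15499), the heat shock factor, lies at chr15:76477362-76501155 on the plus strand. The open reading frames of Hspa1a and Hspa1b are 99.5% identical, with 10 differences and an identical run of 638 bases, in the GENCODE vM21 transcripts. The counting could therefore split reads between the pair or lose them, and the level of each of these 2 genes is uncertain for that reason.

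Library totals ran from 40274435 to 107000233 counts. They differed by group, with 70992683 to 107000233 at 3 h in WT. The highest total was 69151754 in naive WT mice and 69167677 in mutants at 3 h. Each WT library at 3 h was therefore deeper than each library of those groups, and the part of depth in their comparisons was not tested. The genes of this set had at least 98 counts in each library, with the fewest for Hspb1 (98 to 400), Hspa1a (at most 1397) and Hspa1b (at most 2003). Levels are given as CPM, the counts scaled to library size with TMM factors over all 36 libraries. Training was visible in the immediate early genes, whose summed level over 7 genes had medians of 350.3, 662 and 347 CPM at 0, 1 and 3 h in WT and of 336, 653 and 333 CPM in mutants. Markers of neurons (4 genes) summed to between 7361 and 10443 CPM in every library. The choroid plexus markers (4 genes) varied widely within each group, with sums of 40.9 to 7731 CPM over the WT libraries and of 49.0 to 3502 CPM over the mutant ones. Their group medians differed as well, being 2036, 1009 and 2127 CPM at 0, 1 and 3 h in WT, beside 184, 118 and 1428 CPM in mutants. No marker was at 0 throughout, and their part in the results was not tested. In such bulk RNA, fewer cells of a type and less RNA per cell cannot be told apart. Kdm5b itself was transcribed in the mutants, with medians of 80.3 to 87.6 CPM against 87.2 to 91.1 CPM in WT, and the deleted exons were not counted apart.

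In 2 libraries the sex-linked transcripts differed from the label, and both stood apart for the genes described here. The library labelled WT 1 h male 1 had the lowest Hspa1a, Hspa1b, Hsph1, Hsp90aa1, Dnajb1 and Dnajb5 of its group, together with the lowest summed immediate early genes (324 CPM). The library labelled mutant 3 h female 2 had the highest Hspa1a, Hspa1b, Hspb1 and Dnajb1 of its group and the highest summed immediate early genes (866 CPM), but the lowest Hsph1, Hsp90aa1 and Hsf1. The sex transcripts of the first were those of a female and those of the second those of a male, and whether the 2 labels were exchanged was not tested. The libraries were kept under their labels, and values without them are given beside the results that they moved most.

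The set spans a wide range of levels. Per kilobase of exon, the median over the 36 libraries was 104 CPM for Hsp90aa1, 89.3 for Hspa8, 47.8 for Hsph1, 26.7 for Dnajb5, 15.3 for Dnajb1, 5.0 for Hsf1, 4.46 for Hspa1b, 3.06 for Hspa1a and 2.48 for Hspb1. The genes of HSP90, constitutive HSP70 and HSP110 lay above the J-domain genes, and those of inducible HSP70 and of the small heat shock protein were lowest. Hsph1 exceeded Dnajb5, Dnajb5 exceeded Dnajb1, Dnajb1 exceeded Hsf1 and Hspa1b exceeded Hspa1a in 36 of 36 libraries. The order of the other neighbours varied from library to library, since Hsp90aa1 exceeded Hspa8 in 29 of 36 libraries, Hspa8 exceeded Hsph1 in 34, Hsf1 exceeded Hspa1b in 26 and Hspa1a exceeded Hspb1 in 31. The spread over libraries, as the highest level over the lowest, was 1.33 for Hsp90aa1, 1.41 for Hsph1 and 1.48 for Hsf1, and 3.48 for Hspa1a, 3.80 for Hspb1, 4.35 for Hspa1b and 3.52 for Hspa8. The J-domain genes lay between, at 1.75 for Dnajb5 and 2.01 for Dnajb1.

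**Figure D1:**
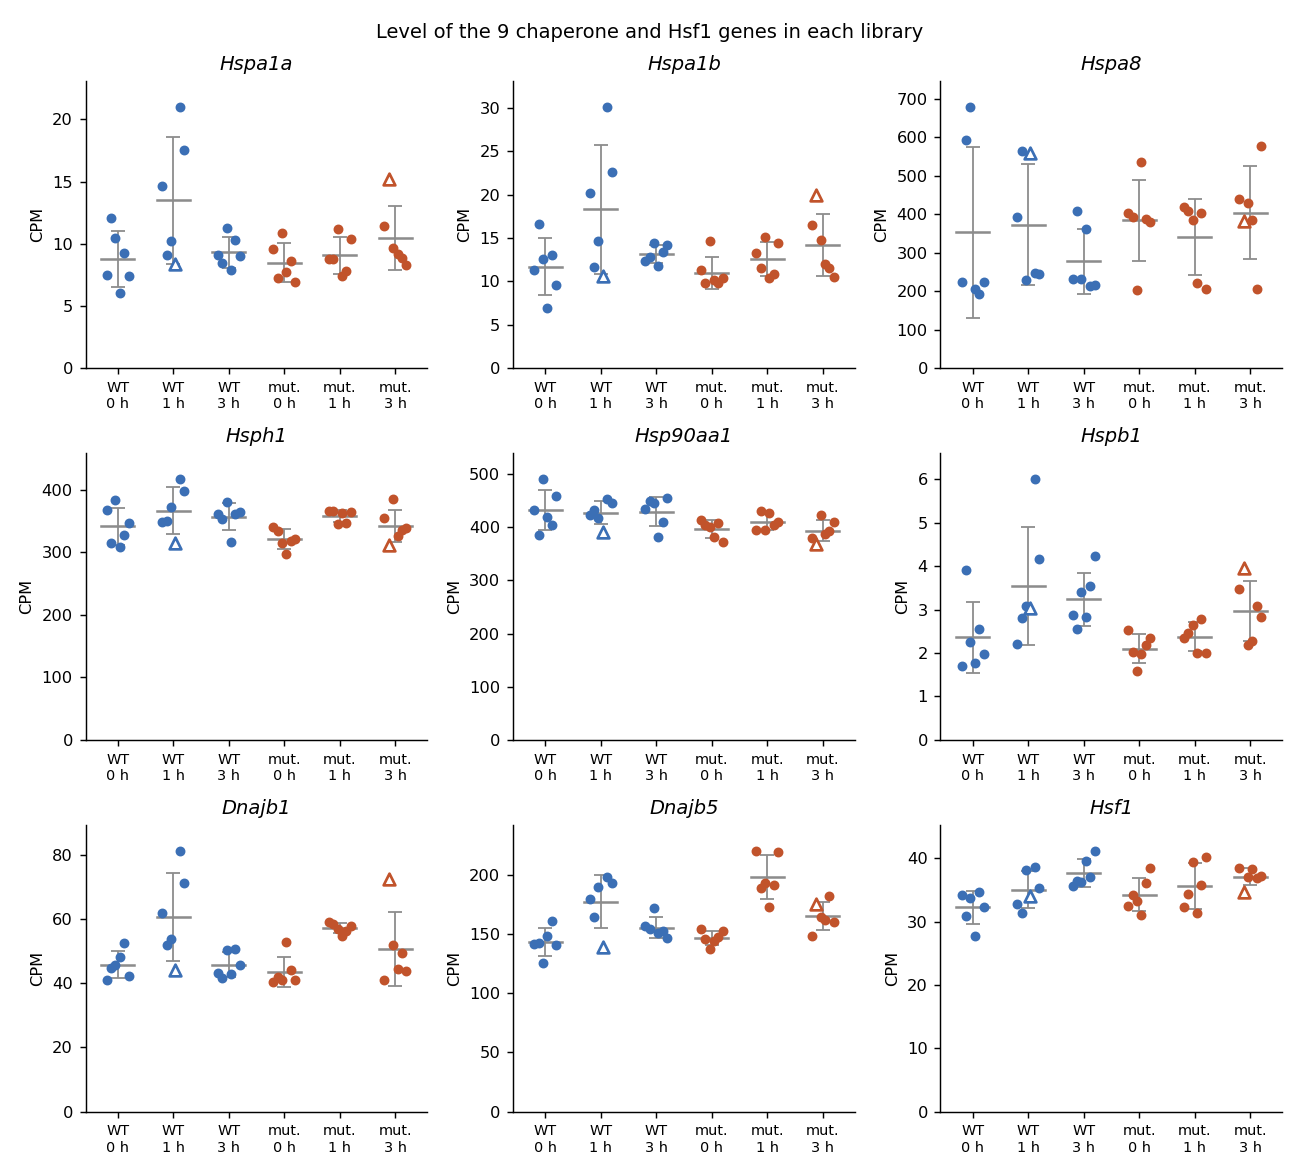
Level of each gene (CPM, linear axis from 0) in the 36 libraries, by genotype and hours after training. Points are libraries, open triangles the 2 libraries whose sex transcripts differ from the label, and grey lines the mean ± SD of 6 libraries. Dnajb5 and Dnajb1 at 1 h lie above 0 h in all mutant libraries, 3 WT libraries at 1 h are high in Hspa1a, Hspa1b and Dnajb1, and Hspa8 falls into separate levels in both genotypes.

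The J-domain genes Dnajb5 and Dnajb1 rose 1 h after training in mutants, where they passed the test over all genes, and did not pass it in WT. In mutants, Dnajb5 had its lowest, median and highest level at 138, 147 and 154 CPM at 0 h, at 173, 192 and 220.2 CPM at 1 h, and at 149, 163 and 182 CPM at 3 h. Each mutant at 1 h therefore lay above each naive mutant, and the 3 h libraries overlapped both. Dnajb5 rose from 0 to 1 h in mutants by a log2 fold change of 0.43 (SE 0.06, adjusted p = 0.00748), rank 6 among 17282 genes tested, and higher in 6 of 6 libraries. Dnajb1, the main HSP40 partner of the inducible HSP70, ran at 40.4, 41.5 and 52.7 CPM at 0 h and at 54.5, 57.4 and 59.1 CPM at 1 h in mutants. Its groups did not overlap either, although the naive library male 1 (52.7 CPM) came close to the 1 h libraries. Dnajb1 rose by 0.39 (SE 0.06, adjusted p = 0.0117), rank 15. Of 17282 genes, 0.301% were called higher in this comparison and 0.312% in either direction, beside 2 of the 9 genes here. These calls held when any 1 of the 12 libraries was left out, with adjusted p from 0.00494 to 0.0261 for Dnajb5 and from 0.000203 to 0.0413 for Dnajb1. With all 36 libraries in 1 fit Dnajb5 was still called, and Dnajb1 (0.40) was not (adjusted p = 0.143). In the same comparison the summed markers of dentate granule cells (3 genes) had medians of 234 CPM at 0 h and 282 CPM at 1 h, and those of striatum (4 genes) of 34.5 and 26.5 CPM, with overlapping groups, and their part in the result was not tested.

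In WT the same genes had similar means at 1 h with a wider spread. Dnajb5 ran at 126, 142 and 161 CPM at 0 h, at 139, 185 and 198 CPM at 1 h and at 146, 153 and 172 CPM at 3 h. Dnajb1 ran at 40.9, 45.2 and 52.5 CPM, at 44.1, 57.7 and 81.2 CPM, and at 41.7, 44.5 and 50.7 CPM. The groups at 0 and 1 h overlapped through the library labelled WT 1 h male 1, which lay among the naive libraries for both genes, and for Dnajb1 also through WT 1 h female 2 (52.0 CPM). The log2 fold change at 1 h was 0.31 for Dnajb5 (SE 0.08, adjusted p = 0.922) and 0.40 for Dnajb1 (SE 0.12, adjusted p = 0.922). Neither was called. Without the library labelled WT 1 h male 1, Dnajb5 was called (0.38, adjusted p = 0.0495), as 1 of 3 genes called (0.0172% of 17439), and Dnajb1 was not (0.50, adjusted p = 0.0795). The adjusted p of Dnajb5 was 0.0495 to 0.951 over the other settings tried.

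A genotype difference in the change from 0 to 1 h was not called for either gene. The interaction was 0.12 for Dnajb5 (SE 0.10, adjusted p = 0.999) and -0.01 for Dnajb1 (SE 0.14, adjusted p = 0.999), where a positive value means a larger increase in mutants. The value for Dnajb5 was 0.16 without mutant 1 h male 1 and 0.06 without the library labelled WT 1 h male 1. The responses of the 2 genotypes were therefore not shown to differ for these genes.

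From 1 to 3 h the levels of Dnajb5 and Dnajb1 came down again without passing the adjusted threshold. Dnajb5 at 3 h differed from 1 h by -0.25 in mutants (SE 0.07, adjusted p = 0.379) and by -0.19 in WT (SE 0.08, adjusted p = 0.604). Dnajb1 differed by -0.40 in WT (SE 0.13, adjusted p = 0.544), and by -0.18 in mutants (SE 0.11, adjusted p = 0.709). Without the libraries of discordant sex these values were -0.28 and -0.25 for Dnajb5 in mutants and WT, and -0.49 for Dnajb1 in WT. Dnajb1 in mutants then stood at -0.30 (adjusted p = 0.0746), as the other 3 h libraries (40.9 to 52.0 CPM) lay below each 1 h library, and it was still not called. Without mutant 3 h female 1 it stood at -0.11. Against 0 h, Dnajb5 at 3 h stood at 0.17 in mutants (SE 0.05, adjusted p = 0.355). The Dnajb1 values at 3 h in mutants were 40.9, 46.9 and 72.6 CPM, and the highest of them belongs to the library labelled mutant 3 h female 2.

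**Figure D2:**
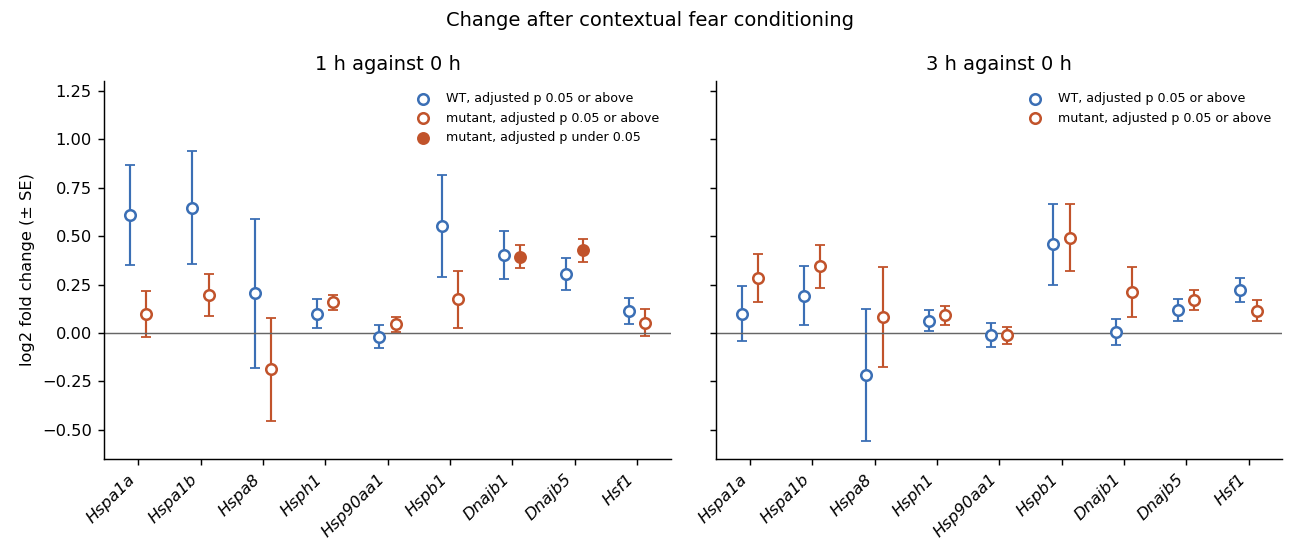
Log2 fold change ± SE at 1 h (left) and 3 h (right) against naive mice for the 9 genes, in WT (blue) and mutants (orange), 6 libraries a group. Filled points pass an adjusted p of 0.05, which holds for Dnajb1 (0.39) and Dnajb5 (0.43) at 1 h in mutants, and the intervals of Hspa8 are the widest.

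The inducible HSP70 genes were high at 1 h in 3 of the 6 WT mice, and no difference in them was called. Hspa1a ran at 6.03, 8.37 and 12.04 CPM in naive WT mice (mean 8.78 ± 2.22, SD, n = 6), at 8.39, 12.5 and 21.0 CPM at 1 h (13.5 ± 5.10) and at 7.91, 9.04 and 11.3 CPM at 3 h (9.32 ± 1.24). The 3 libraries male 2, male 3 and female 1 reached 21.0, 17.5 and 14.7 CPM at 1 h, above each naive library, and the other 3 lay among the naive values. In mutants Hspa1a ran at 6.89, 8.15 and 10.9 CPM, at 7.42, 8.78 and 11.2 CPM and at 8.32, 9.40 and 15.2 CPM, with overlap at all times. The log2 fold change at 1 h was 0.61 in WT (SE 0.26, adjusted p = 0.922), and the mutants were at 0.10 (SE 0.12, adjusted p = 0.826). The mutant value was 0.02 without mutant 1 h male 3 and 0.16 without mutant 0 h female 3. Without WT 1 h male 1 the value in WT was 0.71, and without WT 1 h male 2 it was 0.44.

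Hspa1b followed Hspa1a closely. In WT it ran at 6.92, 11.97 and 16.6 CPM, at 10.6, 17.4 and 30.1 CPM and at 11.8, 13.1 and 14.4 CPM, with 30.1, 22.6 and 20.2 CPM at 1 h in the libraries male 2, male 3 and female 1. In mutants it ran at 9.76, 10.3 and 14.6 CPM, at 10.4, 12.4 and 15.1 CPM and at 10.47, 13.3 and 19.9 CPM. The log2 fold change at 1 h in WT was 0.65 (SE 0.29, adjusted p = 0.924). At 3 h in mutants it was 0.34 for Hspa1b (SE 0.11, adjusted p = 0.419) and 0.28 for Hspa1a (SE 0.12, adjusted p = 0.552), and 0.27 and 0.19 when the library labelled mutant 3 h female 2 was left out. The change from 1 to 3 h in WT was -0.51 for Hspa1a (SE 0.21, adjusted p = 0.622), and -0.36 without WT 1 h male 2 and -0.62 without the library labelled WT 1 h male 1.

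Between genotypes, Hspa1a at 1 h was lower in mutants by a log2 fold change of -0.56 (SE 0.23, adjusted p = 0.518), with overlapping groups, since 3 WT libraries lay in the mutant range. Leaving out 1 library at a time gave -0.66 (without WT 1 h male 1) to -0.40 (without WT 1 h male 2). The genotype difference in the change from 1 to 3 h was 0.74 for Hspa1a (SE 0.28, adjusted p = 0.995) and 0.65 for Hspa1b (SE 0.29, adjusted p = 0.995), beside 2.23% of all genes with a positive difference at an unadjusted p under 0.05. None of these was called, and the values were 0.70 and 0.64 without the 2 libraries of discordant sex, and 0.55 and 0.42 without WT 1 h male 2.

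Hspb1 was the lowest of the set, at 1.69, 2.12 and 3.90 CPM in naive WT mice, at 2.20, 3.06 and 6.01 CPM at 1 h and at 2.56, 3.14 and 4.24 CPM at 3 h. In mutants it ran at 1.58, 2.10 and 2.52 CPM, at 1.99, 2.41 and 2.79 CPM and at 2.18, 2.96 and 3.95 CPM. Its highest WT libraries at 1 h were male 2 (6.01 CPM) and male 3 (4.15 CPM), as for the HSP70 genes, but female 1, which was high in those genes, was lowest here (2.20 CPM). At 3 h the difference from naive mice was 0.46 in WT (SE 0.21, adjusted p = 0.606), and the mutants were at 0.49 (SE 0.17, adjusted p = 0.447), with overlapping groups in both and 0.40 in mutants when the library labelled mutant 3 h female 2 was left out. At 1 h mutants were lower than WT by -0.54 (SE 0.20, adjusted p = 0.443). No difference passed the adjusted threshold.

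Hsph1 and Hsp90aa1, both abundant, had small differences. Hsph1 in mutants ran at 296, 319 and 339.8 CPM at 0 h and at 345, 363 and 366 CPM at 1 h, so that the groups did not overlap. Its log2 fold change was 0.16 (SE 0.04, adjusted p = 0.0988), short of the threshold in edgeR and past it in DESeq2 (0.16, adjusted p = 0.00672), which called 1.61% of 22485 genes. In WT Hsph1 ran at 307, 338 and 382.5 CPM at 0 h and at 315, 361 and 417 CPM at 1 h, and at 3 h it ran at 317, 361 and 380.7 CPM in WT, beside 311, 336 and 385.4 CPM in mutants. Groups without overlap, higher at 1 h, were seen for 3 of the 9 genes in mutants (Hsph1, Dnajb1 and Dnajb5), beside 1.07% of all genes tested.

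Hsp90aa1 was the steadiest of the genes. It ran at 386.1, 426 and 490.8 CPM in naive WT mice, had a lowest level of 392 CPM and a median of 428 CPM at 1 h (mean 427 ± 22.2, SD, n = 6), and ran at 382.4, 440.0 and 454.8 CPM at 3 h. Mutants had 372, 402 and 414 CPM, 394, 406 and 431 CPM, and 369, 390 and 424 CPM. None of its time comparisons had a p under 0.05. Mutants were lower than WT by -0.13 at 0 h (SE 0.06, adjusted p = 0.790) and by -0.12 at 3 h (SE 0.05, adjusted p = 0.766), with overlapping groups, and neither was called.

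Hsf1, the regulator, ran at 27.8, 33.1 and 34.6 CPM in naive WT mice, at 31.4, 34.7 and 38.7 CPM at 1 h and at 35.6, 36.7 and 41.2 CPM at 3 h. The WT groups at 0 and 3 h did not overlap, as held in the higher direction for 0.229% of all genes tested. The difference was 0.22 (SE 0.06, adjusted p = 0.421), with 0.17 to 0.24 when 1 library was left out. In mutants Hsf1 ran at 31.1, 33.7 and 38.5 CPM, at 31.4, 35.1 and 40.3 CPM and at 34.6, 37.2 and 38.5 CPM. The difference at 3 h there was 0.11 (SE 0.05, adjusted p = 0.578), with overlapping groups.

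Counted over the set, edgeR called 2 of the 9 genes at 1 h in mutants and 0 in each of the other 5 time comparisons, the 3 genotype comparisons, the 3 tests of a genotype difference in a change and the comparison of sexes. In those time comparisons and the tests of a difference it called 0.0% of all genes as well, with 0.0% between genotypes at 0 and 1 h, 0.0115% at 3 h and 0.0864% between sexes. DESeq2 called 3 genes of the set at 1 h in mutants and 0 in the other time comparisons, in which it called 0.0222% (1 h against 0 h), 0.332% (3 h against 0 h) and 0.274% (3 h against 1 h) of all genes in WT, and 0.552% and 0.362% at 3 h against 0 and 1 h in mutants. At an unadjusted p under 0.05, 4 of 9 genes were higher at 1 h in WT (2.92% of all genes), 3 at 1 h in mutants (6.23%), 2 at 3 h in WT (4.57%) and 5 at 3 h in mutants (4.89%), and no gene was lower in these comparisons (2.44% to 4.84% of all genes). From 1 to 3 h, 3 of 9 were lower in WT (4.24%) and 1 in mutants (3.75%). The median log2 fold change of the 9 genes was 0.31 at 1 h in WT, 0.16 at 1 h in mutants, 0.10 at 3 h in WT and 0.17 at 3 h in mutants, and that of all genes tested lay within 0.01 of 0. The comparisons of 1 h and of 3 h with 0 h within a genotype share the naive mice. Between genotypes, 1 gene was lower in mutants at 0 h (2.83% of all genes), 2 at 1 h (4.28%) and 1 at 3 h (3.09%), and 0 were higher (3.32%, 4.33% and 3.28% of all genes), again at an unadjusted p. Between the sexes no gene of the set had an unadjusted p under 0.05 (5.12% of all genes), and the estimates of females against males ran from -0.06 to 0.30, where the highest was that of Hspa8.

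Within a group, some of the genes were high or low in the same mice. After the mean of each genotype and time group was removed from log2 CPM, 6 of the 36 pairs of genes were correlated over the 36 libraries, by permutation within groups and adjustment over 36 pairs. Hspa1a and Hspa1b, the near-identical pair whose reads may have been shared, had r = 0.95 (permutation p = 1e-05, the smallest that 100000 permutations can give, adjusted p = 0.00036, Spearman rho 0.92, adjusted p = 0.00036) and 0.93 without the 2 libraries farthest from the median. Hsph1 and Hsp90aa1, the genes of HSP110 and HSP90, had r = 0.75 (permutation p = 2e-05, adjusted p = 0.00036, rho 0.70, permutation p = 8e-05, adjusted p = 0.00144) and 0.72 without the farthest 2. Dnajb1 correlated with Dnajb5 (r = 0.60, rho 0.52, permutation p = 0.00089 and 0.003, adjusted p = 0.0107 and 0.036), and 0.58 was left without the farthest 2.

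The other 3 pairs passed for Pearson's r alone. Hspa1a and Dnajb1 had r = 0.63 (permutation p = 0.00162, adjusted p = 0.0146) with rho 0.53 (permutation p = 0.00624, adjusted p = 0.0562), and r was 0.46 without the farthest 2 libraries. Hspa1b and Dnajb1 had r = 0.58 (permutation p = 0.00561, adjusted p = 0.0337) with rho 0.47 (permutation p = 0.0195, adjusted p = 0.1), and r stayed at 0.58. Hspa1a and Hspb1 had r = 0.56 (permutation p = 0.00507, adjusted p = 0.0337) with rho 0.46 (permutation p = 0.016, adjusted p = 0.0958), and r was 0.41. Without the 2 libraries of discordant sex, 2 pairs were left, Hspa1a with Hspa1b and Hsph1 with Hsp90aa1. The correlation of Dnajb1 with Dnajb5 was then 0.47 (permutation, adjusted p = 0.0606), and those of Dnajb1 with Hspa1a and Hspa1b were 0.47 and 0.41 (permutation, adjusted p = 0.219 and 0.304), so that these relations no longer passed. Hsf1 passed with none of the other 8 genes, with r from -0.18 to 0.32.

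**Figure D3:**
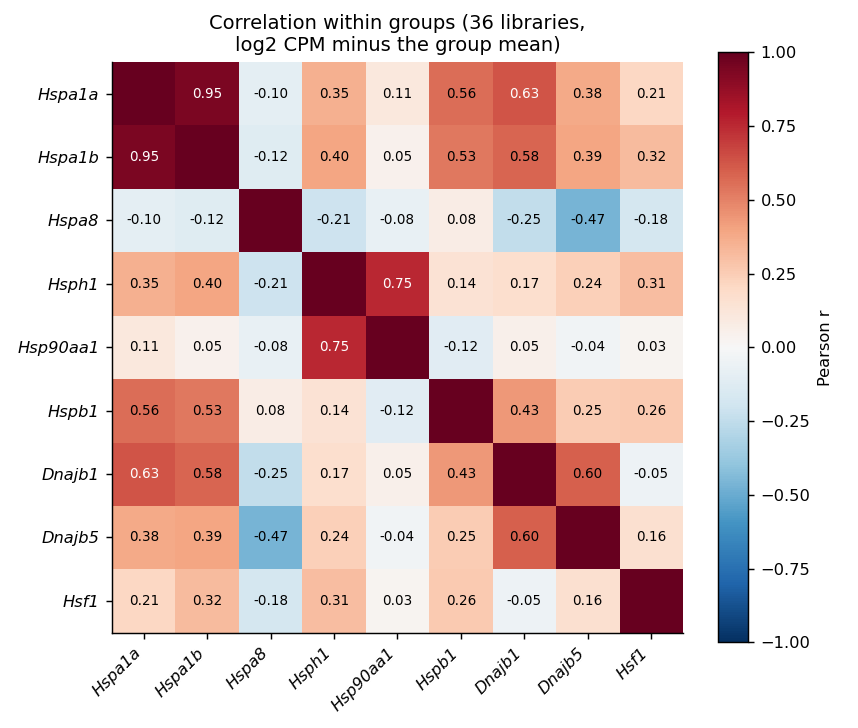
Pearson r between the 9 genes over 36 libraries, on log2 CPM minus the mean of the genotype and time group, printed in each square (red positive, blue negative). The strongest squares are Hspa1a with Hspa1b (0.95) and Hsph1 with Hsp90aa1 (0.75), and Hspa8 has no positive value above 0.08.

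The genes whose levels ran most like those of the 2 called genes over the 36 libraries, among genes with a mean of at least 1 CPM, included genes induced by neuronal activity. For Dnajb5 they were Srf, the serum response factor (r = 0.87), and the early growth response genes Egr4 (0.86) and Egr1 (0.83). For Dnajb1 they were Egr4 (0.87), Ccdc117 (0.86) and Med7, a subunit of the Mediator complex (0.85). With the group means removed they were P4ha1 (0.79), Jmjd6 (0.77) and Egr1 (0.76) for Dnajb5, and Egr4 (0.81), Med7 (0.80) and Egr1 (0.79) for Dnajb1. These values are a description over 36 libraries that share their groups, and the 2 libraries of discordant sex are among them. Without these 2 libraries the first 3 of Dnajb5 were again Egr4 (0.89), Srf (0.87) and Egr1 (0.83), and P4ha1 (0.87) led for Dnajb1, before Egr4 (0.85) and Med7 (0.84).

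Hspa8, the constitutive HSP70, was spread over separate levels that cut across the groups. Its lowest, median and highest level was 193, 223 and 678 CPM in naive WT mice, 230.0, 320.2 and 563 CPM at 1 h and 214, 232 and 408 CPM at 3 h. In mutants it was 204, 390.2 and 535.1 CPM, 207, 395 and 419 CPM, and 205, 407 and 579 CPM. The libraries fell into 3 separate ranges, which were seen in the values and not planned, so that no test was made on them. The low range held 15 libraries from 193 to 248 CPM, the middle range 15 from 361 to 441 CPM and the high range 6 from 535.1 to 678 CPM. The gaps between them were 1.46-fold and 1.21-fold, and the next widest gap was 1.14-fold. In Hspb1 the widest gap was 1.42-fold, below its single highest library, and in Hspa1b a gap of 1.39-fold lay above its single lowest library and one of 1.33-fold below its single highest. In Hspa1a a gap of 1.22-fold, from 12.04 to 14.7 CPM, had more than 1 library on either side. It was as wide as the second gap of Hspa8. The low range held 11 WT and 4 mutant libraries, the middle 3 WT and 12 mutant, and the high 4 WT and 2 mutant, and each range occurred at more than 1 time point. All groups come from the F2 cross of C57BL/6J and 129S2/Sv, the strain of origin at Hspa8 was not read, and its part in these ranges and in the genotype differences was not tested.

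No comparison of Hspa8 between times or genotypes was called. Its estimates were the least precise of the set, with SE from 0.18 to 0.48 over all comparisons, and ran from -0.43 (3 h against 1 h in WT) to 0.54 (mutant against WT at 3 h, SE 0.25, adjusted p = 0.791) over the pairwise comparisons. The change of -0.43 was -0.57 without WT 3 h female 2 and -0.20 when the library labelled WT 1 h male 1 was left out, and the difference of 0.54 was 0.36 without mutant 3 h male 3 and 0.69 without WT 3 h female 2. The library labelled WT 1 h male 1 was in the high range (559.9 CPM) and the library labelled mutant 3 h female 2 in the middle (383.7 CPM).

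Most genes whose levels followed Hspa8 lay near it on chromosome 9. Of the 20 genes with the highest absolute r to Hspa8 over the 36 libraries, 16 lay on chromosome 9, all within 20 Mb of Hspa8, and 2 could not be placed. Of the genes compared, 5.63% lie on chromosome 9 and 2.07% within 20 Mb. For the other 8 genes of the set, 0 or 1 of the 20 genes most like them lay on their own chromosome. The count for Hspa8 was 16 again with group means removed, and 16, of which 15 within 20 Mb, without the 2 libraries of discordant sex. Among the other 8 genes the highest count was 3 (Hspb1) with group means removed and 2 (Hspb1 and Dnajb1) without those libraries. The leading genes were Rnf26 (r = 0.87, 3.31 Mb away), Dcps (-0.85, 5.65 Mb away on the other side) and Zbtb44 (-0.83, 9.75 Mb away), and they included Cryab, the small heat shock protein alpha-B crystallin (0.72, 9.95 Mb away), and Neo1 (-0.71, 18.2 Mb away).

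By distance, 21 of 133 genes within 10 Mb of Hspa8 had an absolute r of at least 0.6, against 3 of 168 at 10 to 20 Mb, 1 of 519 farther off on chromosome 9 and 7 of 13748 not placed on it. The median absolute r was 0.25, 0.13, 0.14 and 0.12 in these classes. The libraries fall into 3 ranges, so that these r values hold the separation between the ranges as well as the likeness within them. Within the low, middle and high range r was -0.15, 0.04 and 0.43 for Rnf26 and -0.23, -0.29 and 0.07 for Cryab, over 15, 15 and 6 libraries. Of the 20 genes, 6 kept the sign of their overall r in all 3 ranges and 14 did not, and the 6 included Dcps (-0.46, -0.52 and -0.66), Vps26b (0.37, 0.55 and 0.54) and Tirap (-0.35, -0.24 and -0.77). The ranges are cut on the level of Hspa8 itself and leave little of its variation within each. These signs therefore cannot decide how alike the genes are within a range.

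**Figure D4:**
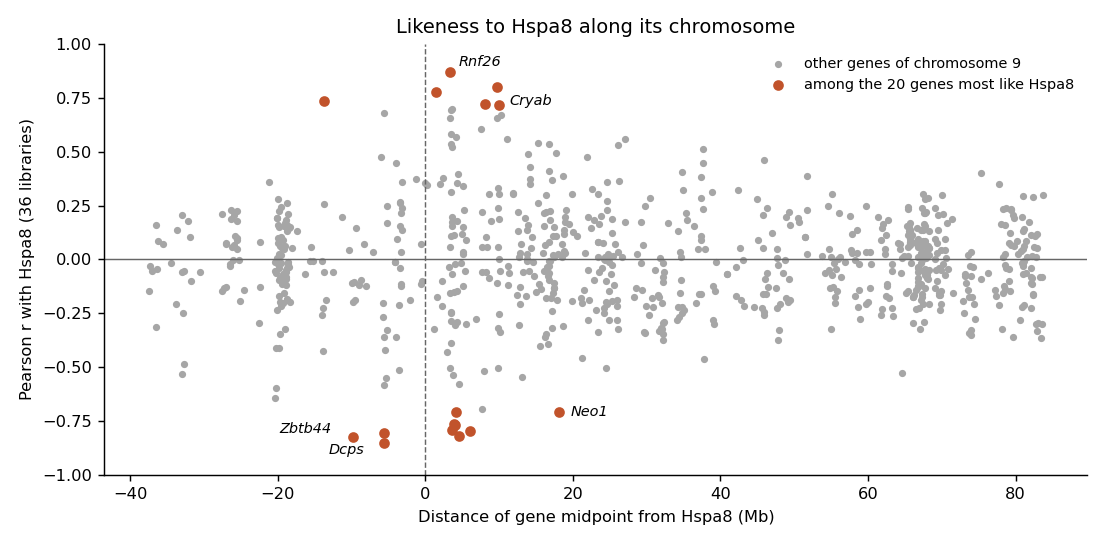
Pearson r of each gene on chromosome 9 with Hspa8 over 36 libraries (vertical axis) against the distance of its midpoint from Hspa8 in Mb. Orange points are the 16 genes of chromosome 9 among the 20 most like Hspa8, and they lie between Vps26b on the left and Neo1 on the right, within 20 Mb of Hspa8 (dashed line).

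The wider chaperone network was followed through 66 other genes in 9 families, of which 65 were tested in the pairwise comparisons. None was called in any comparison, in which edgeR also called few or no genes overall. At an unadjusted p under 0.05, 2 genes were higher and 1 lower at 1 h in WT (2.92% and 2.44% of all genes), and 5 were higher and 2 lower at 1 h in mutants (6.23% and 4.84%). At 3 h, 7 were higher and 4 lower in WT (4.57% and 3.66%), and 8 were higher and 2 lower in mutants (4.89% and 3.68%). The median log2 fold change of the 65 genes lay between 0.00 and 0.02 in these 4 comparisons.

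Of the chaperones of the endoplasmic reticulum, 5 of 9 genes were higher at 3 h at an unadjusted p under 0.05 in mutants (4.89% of all genes) and 3 of 9 in WT (4.57%). Hspa5, which encodes BiP, was at 0.39 in mutants (SE 0.06, adjusted p = 0.280) and at 0.29 in WT (SE 0.12, adjusted p = 0.597). Sdf2l1, a BiP cofactor, was at 0.42 in mutants (SE 0.11, adjusted p = 0.314) and at 0.43 in WT (SE 0.13, adjusted p = 0.453). Hyou1, an ER relative of HSP110, was at 0.16 and 0.14 (adjusted p = 0.339 and 0.540).

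Among 13 HSP90 genes and cofactors, Fkbp5, a glucocorticoid-induced cochaperone of steroid receptors, stood at 0.61 at 3 h in WT (SE 0.16, adjusted p = 0.421) and at 0.57 in mutants (SE 0.17, adjusted p = 0.379). Chordc1 was at 0.14 at 1 h in WT (adjusted p = 0.922). Among 6 small heat shock genes, Hspb6 was at 0.31 at 1 h and 0.35 at 3 h in mutants (adjusted p = 0.447 and 0.496), and Cryab was higher in mutants than in WT at 3 h by 0.48 (SE 0.13, adjusted p = 0.629). Among 8 J-domain relatives of Dnajb1 and Dnajb5, none had a p under 0.05 in the higher direction in these 4 time comparisons, and Dnajb6 was at -0.10 at 1 h in WT (adjusted p = 0.922). The 8 subunits of the TRiC chaperonin, which folds actin and tubulin, had no p under 0.05 in the 4 comparisons. Hsbp1, which binds HSF1, was at -0.09 at 1 h and -0.08 at 3 h in mutants (adjusted p = 0.436 and 0.566).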

How the data were processed

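RNA of dorsal hippocampus, 1 mouse per library, was selected by poly-A and sequenced as paired reads on the Illumina NovaSeq, per the labels. The authors aligned reads to mm10 with STAR 2.7.8a and counted them with featureCounts 2.0.1 in Galaxy, and deposited the raw gene counts without any normalization. The gene annotation, strand setting and treatment of multi-mapping reads are not given in the sources used here, so that near-identical genes (Hspa1a and Hspa1b) and overlapping genes may share or lose reads. Files hold 27179 Entrez genes, of which 25275 were named from RefSeq (GRCm38), and the 1904 without a name hold 1.28% of counts. No 2 libraries had identical counts.

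Samples were grouped by their labels. Each comparison of 2 groups was fitted on its 12 libraries with edgeR 4.0.16 (limma 3.58.1, R 4.3.3): filterByExpr with a minimum count of 10, TMM, sex as labelled as covariate, robust quasi-likelihood F-test and Benjamini-Hochberg adjustment over all genes tested, with an adjusted p under 0.05 called. The SE is the log2 fold change divided by the root of F. Genotype differences in a change were tested as interactions in 24 libraries, and sex in all 36. CPM use TMM factors of all 36 libraries over 18186 genes. Correlations use log2 CPM with a prior count of 2 and 100000 permutations within groups. A fold change is printed for genes of the set with an unadjusted p under 0.05 or called under any setting, with a few others for contrast. Exon lengths are from GENCODE vM21, and promoter windows from RefSeq. The CArG box and TGACG were searched after the likeness of Dnajb5 to Srf was seen.

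The genes, lists, tests and settings were chosen with earlier results of these data known. Settings tried were DESeq2 1.42.0, RLE factors, no filter, no covariate, all 36 libraries in 1 fit, sex and replicate number as a block, no libraries of discordant sex, and each library left out. Same-numbered samples deviated together for 6 of 6 numbers in 1 comparison, 1 h against 0 h in mutants (r from 0.17 to 0.30). For 5 of the 6 numbers, r was highest between the same-numbered samples. Between genotypes at 0 h and at 1 h, r was over 0.1 for 5 of 6 numbers. The block treats the numbers as pairs of mice at 1 and 0 h in mutants, from the data and not from a label. The main fit used sex alone, and the block left both calls there in place. In simulated data for 1 h against 0 h in WT (17319 genes, 50 changed at each size), edgeR recovered 9 of the genes made to change by 0.25 (log2, up or down). It recovered 30 of those changed by 0.5, 40 of those by 1 and 43 of those by 1.5, and it also called 10 genes left as they were. In the real libraries of this comparison edgeR called 0 genes (smallest adjusted p = 0.282). The planted changes ease the adjustment, so that these counts are not the power of the test in WT. Levels and correlations were computed with pandas 2.3.3, SciPy 1.17.1 and NumPy 2.4.6, and figures drawn with Matplotlib 3.10.9, under Python 3.11.15.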

Additional observations from a re-analysis of the deposited data

Results flagged for a closer look

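In 54 sets of 6 libraries (9 genes in 6 groups), 3 held a library far from the other 5 by Dixon's test, which flags about 1 in 20 groups by chance. Dnajb1 was at 72.6 CPM in the library labelled mutant 3 h female 2, beside 40.9 to 52.0 CPM in the other 5, and this is 1 of the 2 libraries whose sex transcripts differ from the label. Dnajb1 was also at 52.7 CPM in mutant 0 h male 1, beside 40.4 to 44.0 CPM. Hspa1b was at 14.6 CPM in mutant 0 h female 3, beside 9.76 to 11.3 CPM. Leaving out mutant 0 h male 1 moved the change of Dnajb1 at 1 h in mutants to 0.45.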

How the results depend on the processing

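Dnajb5 kept its call at 1 h in mutants under all 7 other settings and each of 12 left-out libraries, and Dnajb1 under 6 of 7 settings and 12 of 12 left-out libraries. The setting without the 2 libraries of discordant sex leaves out no library of this comparison. It repeats the main fit and is no check of these calls. With all 36 libraries in 1 fit, 1 gene of the set was called there, since Dnajb1 (0.40) had an adjusted p of 0.143. At 1 h in WT, 1 gene was called (Dnajb5, 0.38) without the 2 libraries of discordant sex, and 0 to 1 when single libraries were left out, the 1 being without WT 1 h male 1. The cause was not tested. Hsph1 at 1 h in mutants was called by DESeq2 alone. Without the 2 libraries of discordant sex, 2 pairs of genes were correlated in place of 6, with r of 0.52 for Hspa1a and Hspb1, 0.47 for Hspa1a and Dnajb1, 0.41 for Hspa1b and Dnajb1 and 0.47 for Dnajb1 and Dnajb5. The genotype difference in the change of Dnajb1 from 0 to 1 h, near 0, ran from -0.09 to 0.09 when 1 of 24 libraries was left out. It was above 0 in 9 cases, at 0.087, 0.033 and 0.014 without WT 1 h male 2, male 3 or female 1, at 0.031 and 0.016 without WT 0 h male 3 or female 1, at 0.044 without mutant 0 h male 1, and at 0.022, 0.013 and 0.00311 without mutant 1 h male 1, male 2 or male 3. No other value reversed. DESeq2 called more genes overall (5, 75 and 62 in the WT time comparisons and 363, 124 and 81 in mutants, against 0, 0, 0, 54, 0 and 0 in edgeR), and 51 were called with all libraries in 1 fit at 1 h in mutants. With the replicate number as a block, 37 genes in place of 54 were called at 1 h in mutants, among them the same 2 genes of the set, and the block changed no other call in the set. In the other pairwise comparisons the samples are not known to share more than a number, with correlations from -0.34 to 0.48. Hspb1, with 98 to 400 counts a library, has the least precise counts.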
